A study of Mus musculus with 9 samples.

Results

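The Smad family was described in IECs (intestinal epithelial cells) of the colon, in which *Smad4* itself had been floxed. The members were the 8 rows of the deposited count table that carry the symbols *Smad1*, *Smad2*, *Smad3*, *Smad4*, *Smad5*, *Smad6*, *Smad7* and *Smad9*, out of 46095 symbols in the whole table. RNA had been sequenced from 4 libraries of the *Smad4Vil-KO* genotype and 5 libraries of the *Smad4Vil-KO;Setd2Vil-KO* genotype, called double-KO here. In both genotypes Cre recombinase under the Villin promoter deletes floxed *Smad4* in the intestinal epithelium, and in the double-KO mice floxed *Setd2* as well. Other cell types of the colon keep both genes. The mice were of the C57BL/6j background and had received the carcinogen AOM at 10 mg/kg at 8 weeks of age, and then 2% DSS by mouth, an agent that damages the lining of the colon. IECs were released from the colon with EDTA after 10 days of this treatment. No library with intact *Smad4* is in the comparison, which asks what the added loss of *Setd2* does in epithelium that already lacks *Smad4*.

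Smad proteins carry the signal of TGF-beta, activin and BMP receptors from the cell membrane to the nucleus. Ligand-bound receptors phosphorylate the receptor-regulated Smads, of which *Smad2* and *Smad3* serve TGF-beta and activin and *Smad1*, *Smad5* and *Smad9* serve BMP, and these bind the common mediator *Smad4* to act on DNA. The inhibitory Smads, *Smad6* and *Smad7*, are themselves induced by the pathway and block its receptors and receptor-regulated Smads. In the gut, BMP signals are strongest towards the top of the crypt and TGF-beta restrains epithelial growth, and SMAD4 is a tumour suppressor of colorectal cancer.

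Levels are given as CPM, counts scaled to the same library total with the TMM method, in the order of the replicate numbers. Log2 fold changes are double-KO over *Smad4Vil-KO*, with their standard error (SE), and adjusted p values come from the quasi-likelihood test of edgeR, adjusted after Benjamini and Hochberg for all 14593 genes tested. The total count was 12487129 to 17120202 per library, so that a single count was worth 0.0594 to 0.0794 CPM. The libraries are numbered within a genotype but are not tied to mice or litters by their labels, so the p values measure the spread between libraries. Y-linked counts (*Kdm5d*, *Uty*, *Eif2s3y* and *Ddx3y* summed) were 4907, 4745 and 3857 in double-KO replicates 1, 2 and 5 and at most 28 in every other library. Since no *Smad4Vil-KO* library had such counts, the results on Smad genes that changed with it are also given for the 4 *Smad4Vil-KO* libraries against double-KO replicates 3 and 4, the libraries without Y-linked counts.

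None of the 7 Smad genes that passed the filter on low counts was called between the genotypes by edgeR, where 13.3% of all genes tested were called. *Smad7* alone had an unadjusted p under 0.05 (30.6% of all genes tested had one). DESeq2 and limma-voom each called 1 Smad gene, *Smad7*, at an adjusted p under 0.05. They also called more of the 14593 genes than edgeR did, 2792 with DESeq2 and 2927 with limma-voom, beside 1941. Of the 7, 6 had a lower and 1 a higher estimate in the double-KO, and their median log2 fold change was -0.09, beside -0.00060 over all genes tested. *Smad9* did not pass the filter.

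**Figure D1:**
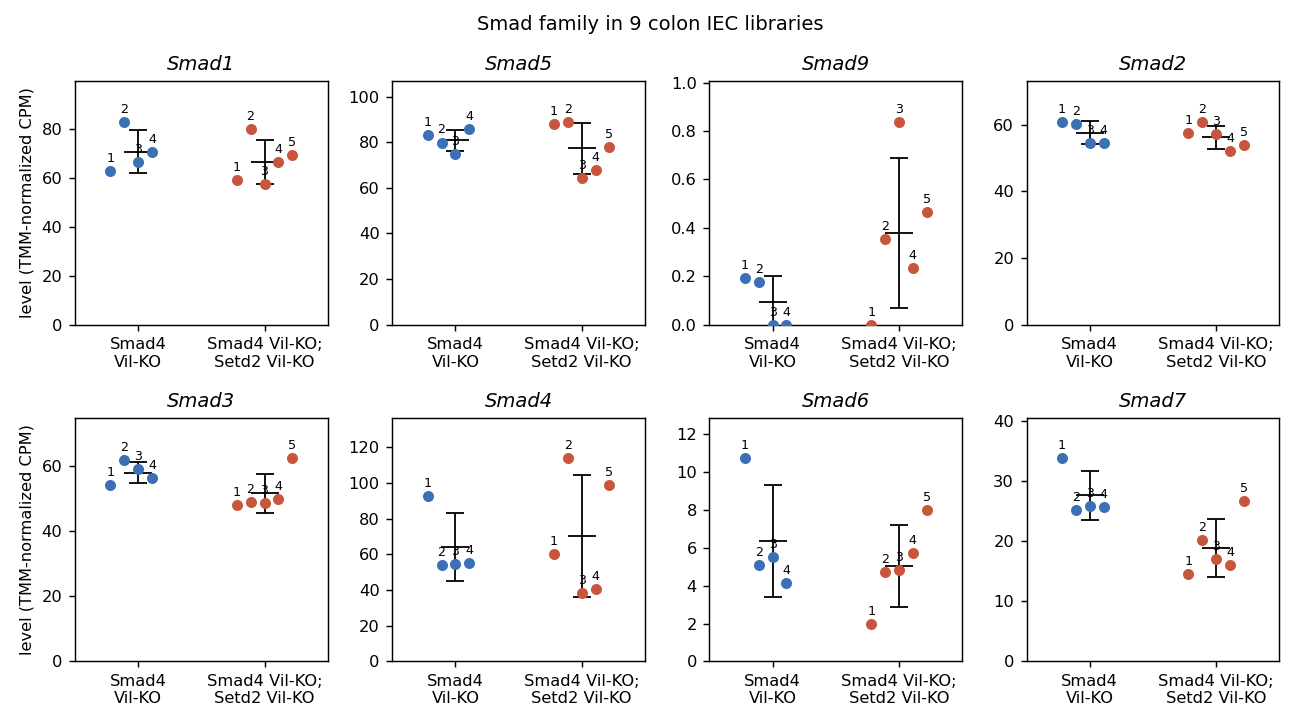
Level of each of the 8 Smad genes in the 9 IEC libraries, in TMM-normalized CPM on a linear axis from 0 that is scaled for each gene. Each point is a library with its replicate number, blue for *Smad4Vil-KO* and red for the double-KO (*Smad4Vil-KO;Setd2Vil-KO*), and the lines are the mean and SD. The double-KO points of *Smad4* spread from 38.2 to 114 CPM, and those of *Smad7* lie between 14.5 and 20.3 CPM apart from replicate 5 at 26.7 CPM.

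Promoter sequence from RefSeq (GRCm38.p6) was used for 5 of the 8 members. *Smad2*, *Smad4* and *Smad7* were left out of the search, so nothing is said here of their motifs. Motifs were searched for on both strands of windows that reach from 250 bases before to 50 bases after each start site. These were the palindromic Smad binding element GTCTAGAC, its short form CAGAC, the GC-rich Smad and BMP response motif GGCGCC and the TATA motif TATAAA, none of which contains another. The palindrome is shown because *Smad6* was the only one of the 5 searched members to hold it, at the start site itself. Of all 32851 windows, 70 held it (0.213%). The stretch below is the minus strand, chr9:64022056-64022159, from 100 bases before the *Smad6* start, with the palindrome in capitals.
Smad6: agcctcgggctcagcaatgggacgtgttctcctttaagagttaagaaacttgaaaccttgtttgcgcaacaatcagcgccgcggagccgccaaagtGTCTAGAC
GGCGCC was found at *Smad9* and *Smad5* (11.9% of all windows) and CAGAC at 1 of the 3 start sites of *Smad5* (49.6% of all windows), while the windows of *Smad1* and *Smad3* held none of the motifs. The TATA motif was in no searched Smad window (13.6% of all windows). These matches describe letters in the reference and are no measurement of binding.

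The genes are spread over 5 chromosomes. In GRCm38 with the GENCODE M21 annotation, *Smad9* spans 54755582-54801257 on the plus strand of chromosome 3, *Smad1* 79338395-79399518 on the minus strand of chromosome 8 and *Smad5* 56703010-56742377 on the plus strand of chromosome 13. *Smad3* (63646767-63757994) and *Smad6* (63953076-64022059) are neighbours on the minus strand of chromosome 9, the chromosome that also holds *Setd2* (110532500-110618633). *Smad2*, *Smad4* and *Smad7* are all on chromosome 18. Exons of *Smad5* share 100 bases with a small RNA gene, *Gm27301*, that has no row in the table, and no other member shares exon bases with another annotated gene.

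To order the members by level, CPM were divided by gene length. Per kilobase of merged exons, over the 9 libraries, *Smad4* had the highest mean level (18.2 CPM per kb), followed by *Smad1* (10.9), *Smad5* (10.6), *Smad3* (9.83), *Smad2* (6.47), *Smad7* (5.04), *Smad6* (1.76) and *Smad9* (0.0469). *Smad1*, *Smad5* and *Smad3* could not be ordered beyond their spread on this length, since *Smad1* exceeded *Smad5* in 6 of 9 libraries and *Smad5* exceeded *Smad3* in 5 of 9. *Smad3* exceeded *Smad2*, and *Smad7* exceeded *Smad6*, in 9 of 9 libraries, and *Smad2* exceeded *Smad7* in 8 of 9. The place of *Smad4* rested on the length used, since it exceeded *Smad1* in 9 of 9 libraries per kilobase of merged exons and in 4 of 9 per kilobase of the longest coding transcript (20.0 against 18.1 CPM per kb). On that second length *Smad1* exceeded *Smad5* in 9 of 9 libraries. Summed over the 8 genes, the level was 398, 370, 341 and 352 CPM in the *Smad4Vil-KO* libraries and 329, 418, 288, 299 and 397 CPM in the double-KO libraries, so the genotypes overlapped.

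*Smad4*, the common mediator, was still counted in every library. It was at 92.7, 54.3, 54.4 and 55.4 CPM in the *Smad4Vil-KO* libraries and at 60.1, 114, 38.2, 40.5 and 98.7 CPM in the double-KO libraries, from 515 to 1600 counts. Replicate 1 stood above the other *Smad4Vil-KO* libraries, and double-KO replicates 2 and 5 were high while replicates 3 and 4 were the lowest of all 9. The means were 64.2 ± 19.0 CPM (SD, n = 4) and 70.3 ± 34.4 CPM (SD, n = 5), and the log2 fold change was 0.13 (SE 0.33, edgeR adjusted p = 0.819, 95% interval -0.59 to 0.85). A gene count includes reads from exons outside the floxed part and from cells without Cre, so this level does not check the deletion. In these bulk libraries a different share of cells and a different amount of RNA per cell cannot be told apart.

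The estimate for *Smad4* had no stable sign. Without double-KO replicate 2 it was -0.11, and without replicate 5 it was -0.011. In the libraries without Y-linked counts it was -0.70 (SE 0.22, edgeR adjusted p = 0.0508), where double-KO replicates 3 and 4 lay below all 4 *Smad4Vil-KO* libraries. With a term for Y-linked counts in all 9 libraries it was -0.71 (SE 0.28, edgeR adjusted p = 0.145). Within the double-KO it was at 60.1 to 114 CPM in the 3 libraries with Y-linked counts and at 38.2 to 40.5 CPM in the 2 without. How many of all genes separate in this split was not counted. Replicates 3 and 4, those without, were also the closest double-KO libraries over all genes (chi-square on counts of 9.22 per gene). No *Smad4Vil-KO* library had Y-linked counts, so the same split could not be made in that genotype.

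*Smad4* was also the member with a spread far above that of genes at its level. Its biological coefficient of variation, the spread between libraries of 1 genotype beyond counting error, was 34.1%, where the trend at that level was 15.6%, and 85 of 4313 genes within 2-fold of its level had a higher one (1.97%). *Smad2*, at 10.2%, was at the other end, with 92.5% of genes of like level above it. *Smad6* (39.1%, 11.9% of like-level genes above it) and *Smad7* (19.4%, 20.4% above it) varied more than *Smad1* (13.6%), *Smad5* (13.0%) and *Smad3* (11.7%).

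**Figure D2:**
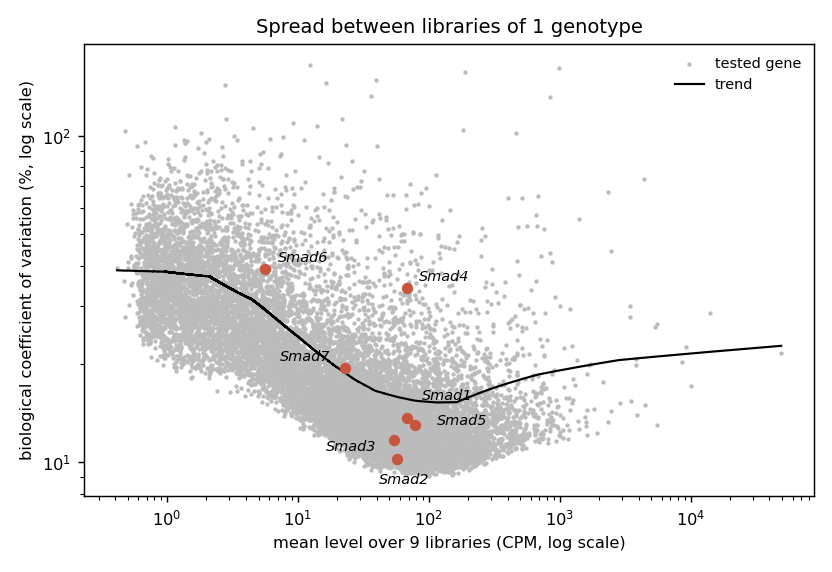
Biological coefficient of variation (%, log axis) of each tested gene against its mean level over the 9 libraries (CPM, log axis). Grey points are tested genes, the line is the trend over all genes tested and red points are the 7 tested Smad genes. *Smad4* (34.1%) stands well above the trend (15.6%) and *Smad2* (10.2%) near the lower edge of the cloud.

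*Setd2*, the histone H3K36 methyltransferase deleted in the double-KO, was at 118, 120, 99.2 and 114 CPM in the *Smad4Vil-KO* libraries and at 57.8, 87.1, 55.7, 53.9 and 76.1 CPM in the double-KO libraries. It was lower in 5 of 5 double-KO libraries without overlap (8.87% of all genes tested were lower without overlap), with a log2 fold change of -0.77 (SE 0.14, edgeR adjusted p = 0.00756). Double-KO replicates 2 and 5, the highest of their genotype for *Smad4*, were also the highest for *Setd2*. The summed level of 14 leukocyte markers, none of them at 0 in every library, was 498 to 547 CPM in the *Smad4Vil-KO* libraries and 600, 1098, 179, 195 and 355 CPM in the double-KO libraries. *Cd74*, the invariant chain of MHC class II, made up 499, 982, 81.7, 62.9 and 299 CPM of it in the double-KO libraries, the larger part in replicates 1, 2 and 5 and the smaller part in replicates 3 and 4. Without *Cd74* the other 13 markers summed to 64.9 to 169 CPM in the *Smad4Vil-KO* libraries and to 101, 116, 96.8, 132 and 56.1 CPM in the double-KO libraries, an order that was not that of *Smad4* or *Setd2*, since replicate 4 was the highest and replicate 5 the lowest. The pan-leukocyte marker *Ptprc* was at 48.5, 44.5, 48.7, 56.3 and 22.3 CPM in the double-KO libraries.

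The genes whose pattern over the 9 libraries was most like that of *Smad4*, by the Pearson correlation of log2 CPM after each genotype mean had been subtracted, were *Atg13* (r = 0.98), *Fut4* (0.98), *Wwp2* (0.97), *Tbc1d22a* (0.97) and *Dazap2* (0.96), among 9472 candidates whose mean reached 10 CPM. Of these, 63 genes had a correlation over 0.9. *Atg13*, an autophagy initiation factor, was at 56.3, 46.9, 44.3 and 47.4 CPM in the *Smad4Vil-KO* libraries and at 38.3, 51.4, 35.3, 34.2 and 48.5 CPM in the double-KO libraries. *Wwp2*, a ubiquitin ligase that acts on Smads, was at 155, 109, 122 and 118 CPM and at 121, 157, 90.4, 92.5 and 134 CPM. Both were highest in *Smad4Vil-KO* replicate 1 and in double-KO replicates 2 and 5 and lowest in double-KO replicates 3 and 4, as *Smad4* was. These correlations are descriptions, and depth and the marker levels given here also varied between the libraries.

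Of the receptor-regulated Smads of the BMP branch, *Smad1* and *Smad5* were not called between the genotypes in the fit to all 9 libraries. *Smad1* was at 62.8, 82.8, 66.3 and 70.4 CPM in the *Smad4Vil-KO* libraries and at 59.1, 79.7, 57.3, 66.5 and 69.2 CPM in the double-KO libraries, which overlapped. Its means were 70.6 ± 8.73 CPM (SD, n = 4) and 66.4 ± 8.96 CPM (SD, n = 5), with a log2 fold change of -0.09 (SE 0.12, edgeR adjusted p = 0.631, 95% interval -0.34 to 0.16). The genes most like it were *Ptk2b* (r = 0.96), *Sptlc2* (0.95) and *Ptprh* (0.93).

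*Smad5* was at 83.1, 79.9, 74.7 and 85.6 CPM in the *Smad4Vil-KO* libraries and at 87.8, 89.0, 64.2, 67.8 and 77.8 CPM in the double-KO libraries. The genotypes overlapped, and double-KO replicates 3 and 4 lay below every *Smad4Vil-KO* library. The means were 80.8 ± 4.68 CPM (SD, n = 4) and 77.3 ± 11.3 CPM (SD, n = 5), with a log2 fold change of -0.06 (SE 0.11, edgeR adjusted p = 0.726, 95% interval -0.30 to 0.17). Without double-KO replicate 3 the estimate was 0.0047. In the libraries without Y-linked counts it was -0.29 (SE 0.09) and passed the test (edgeR adjusted p = 0.0424), in a fit that called 2930 of 15138 genes. With a term for Y-linked counts in all 9 libraries it was -0.29 and did not pass (edgeR adjusted p = 0.0903). The genes most like *Smad5* were *Acer3* (r = 0.99), *5730455P16Rik* (0.99) and *Gbp2* (0.98), and 163 genes had a correlation over 0.9.

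*Smad9*, the third BMP Smad, was near the limit of detection. Its counts were 3, 3, 0 and 0 in the *Smad4Vil-KO* libraries and 0, 5, 12, 3 and 6 in the double-KO libraries. In total 6 counts stood against 26, a ratio of 3.82 scaled to depth with an interval of 1.54 to 11.3, which covers counting error only. In a fit without the filter, which tested 26890 genes, the log2 fold change was 1.87 (SE 0.97, edgeR adjusted p = 0.283).

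The receptor-regulated Smads of the TGF-beta and activin branch were not called either, and had the lowest biological coefficients of variation of the tested members. *Smad2* was at 60.8, 60.2, 54.6 and 54.6 CPM in the *Smad4Vil-KO* libraries and at 57.4, 60.9, 57.1, 52.0 and 53.9 CPM in the double-KO libraries, an almost complete overlap. Its means were 57.6 ± 3.42 CPM (SD, n = 4) and 56.3 ± 3.44 CPM (SD, n = 5). The log2 fold change was -0.033 (SE 0.08, edgeR adjusted p = 0.803), with a 95% interval of -0.20 to 0.14, the narrowest of the 7 tested members. Without double-KO replicate 4 the estimate was 0.0044. The genes most like *Smad2* were *Phactr4* (r = 0.99), *Ankrd17* (0.93) and *Ubac2* (0.92).

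*Smad3* was at 54.3, 62.0, 59.1 and 56.5 CPM in the *Smad4Vil-KO* libraries and at 48.1, 48.9, 48.8, 50.0 and 62.4 CPM in the double-KO libraries. Double-KO replicates 1 to 4 lay below every *Smad4Vil-KO* library, and replicate 5 was the highest of all 9. The means were 58.0 ± 3.30 CPM (SD, n = 4) and 51.6 ± 6.07 CPM (SD, n = 5), with a log2 fold change of -0.17 (SE 0.09, edgeR adjusted p = 0.253, 95% interval -0.38 to 0.040). The genes most like *Smad3* were *Cnn3* (r = 0.96), *Clip2* (0.94) and *Msl1* (0.93).

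**Figure D3:**
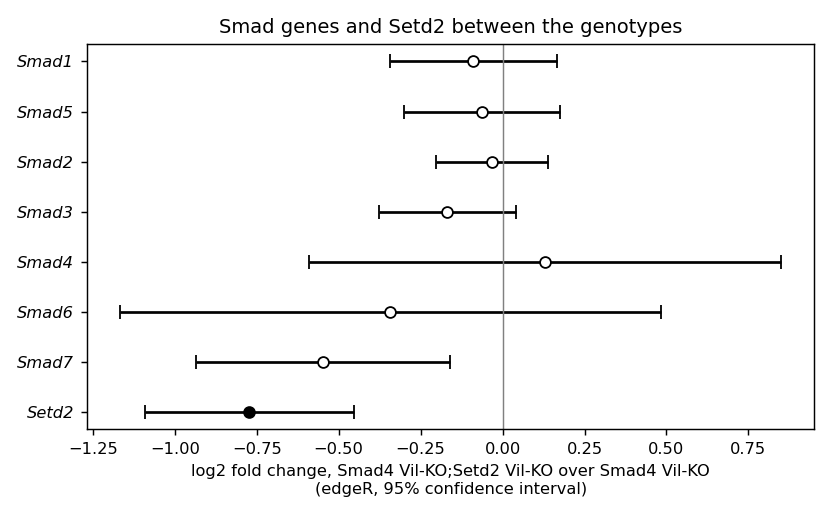
Log2 fold change, double-KO over *Smad4Vil-KO*, of the 7 tested Smad genes and *Setd2*, with 95% confidence intervals from edgeR (n = 4 and 5 libraries). Filled circles have an adjusted p under 0.05 and open circles do not. *Setd2* (-0.77) is the only filled circle, the interval of *Smad7* (-0.94 to -0.16) lies below 0, and those of the other 6 Smad genes span 0.

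*Smad7*, an inhibitory Smad and a direct target of TGF-beta signalling, had the largest difference of the tested members. It was at 33.8, 25.2, 25.9 and 25.6 CPM in the *Smad4Vil-KO* libraries and at 14.5, 20.3, 16.99, 16.1 and 26.7 CPM in the double-KO libraries. Double-KO replicates 1 to 4 lay below every *Smad4Vil-KO* library, and the genotypes overlapped through replicate 5 alone. The mean was 27.6 ± 4.13 CPM (SD, n = 4) in the *Smad4Vil-KO* and 18.9 ± 4.83 CPM (SD, n = 5) in the double-KO libraries, a ratio of 0.684. The log2 fold change was -0.55 (SE 0.18, 95% interval -0.94 to -0.16), with an unadjusted p of 0.00993 and an edgeR adjusted p of 0.0636, which missed the threshold of 0.05.

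The estimate for *Smad7* was negative in all 18 alternative fits, from -0.74 to -0.43, and passed the threshold in 5 of them. It passed with DESeq2 (-0.54, adjusted p = 0.0289), with limma-voom (-0.58, adjusted p = 0.0197) and without double-KO replicate 5 (-0.69, edgeR adjusted p = 0.0104). In the libraries without Y-linked counts it was -0.73 (SE 0.15, edgeR adjusted p = 0.00988), and with a term for Y-linked counts in all 9 libraries it was -0.74 (edgeR adjusted p = 0.0706). The fit with the replicate number as a block, the fifth, is given with the processing alternatives.

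**Figure D4:**
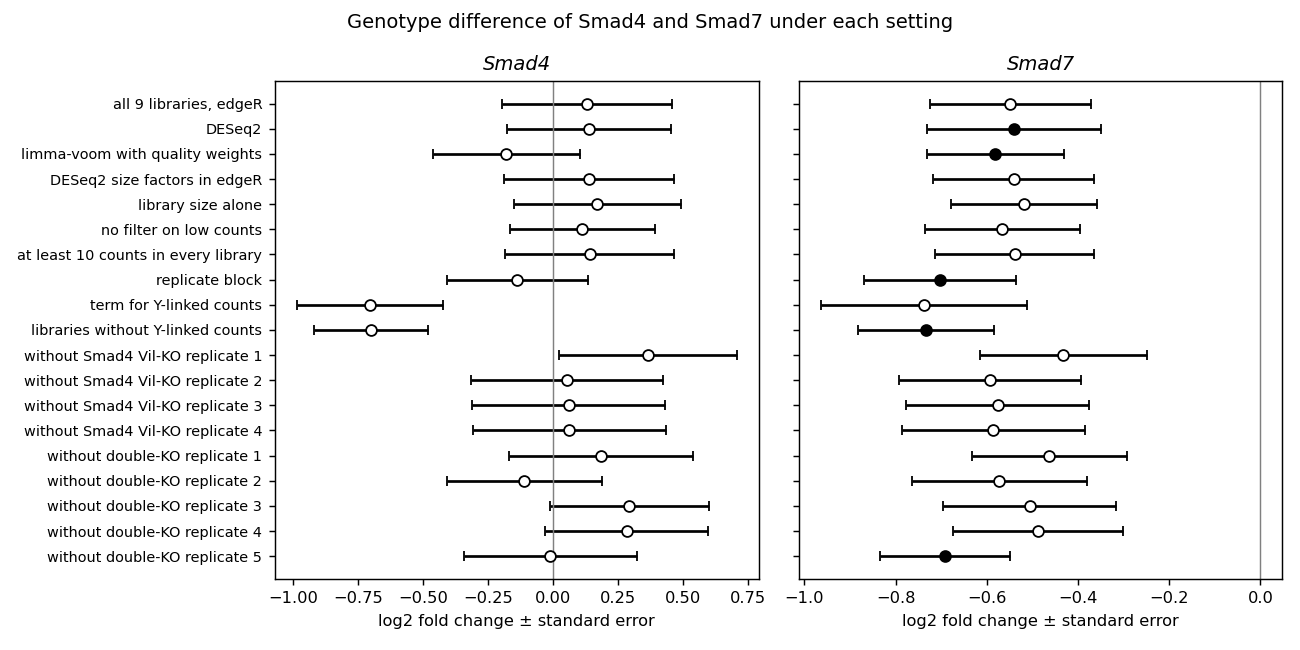
Log2 fold change, double-KO over *Smad4Vil-KO*, of *Smad4* (left) and *Smad7* (right) in the fit to all 9 libraries (top row) and in 18 alternative fits, with bars of 1 standard error. Filled circles have an adjusted p under 0.05 and open circles do not. The estimates of *Smad4* run from -0.71 to 0.37 on both sides of 0, and those of *Smad7* from -0.74 to -0.43 with 5 filled circles.

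Markers that moved with the genotype stand beside this result. The summed level of 10 epithelium markers was 21989 to 26400 CPM in the *Smad4Vil-KO* libraries and 17063 to 20530 CPM in the double-KO libraries, and that of 10 small intestine enterocyte markers was 404 to 480 CPM and 629 to 1544 CPM, with no overlap in either and no marker at 0 in every library. Most of the first difference was in the goblet cell mucin *Muc2* (6143 ± 1253 and 2003 ± 444 CPM), while *Epcam* was at 1920 ± 37.6 and 1928 ± 93.0 CPM. The sum of 8 colonocyte markers overlapped (3858 to 5256 and 2034 to 6046 CPM). Of these 8 genes 3 were called lower and 0 higher, and 7 had a lower and 1 a higher estimate. Double-KO replicate 5, the library in which *Smad7* and *Smad3* were highest for their genotype, also had the lowest small intestine enterocyte level of the double-KO libraries (629 CPM). Markers of fibroblasts (34.1 to 70.3 CPM), endothelium (6.26 to 10.9 CPM), smooth muscle (0.708 to 3.75 CPM) and enteric neurons and glia (3.32 to 7.08 CPM) were low, and these sums overlapped between the genotypes, with the glial marker *Sox10* at 0 in every library. Single markers of these lists had estimates in both directions. Of 6 fibroblast markers tested, 1 was called, the fibronectin gene *Fn1*, which was lower (26.2 ± 14.6 and 7.64 ± 4.74 CPM, edgeR adjusted p = 0.0232), while 4 had a higher estimate in the double-KO, among them *Dcn* (6.73 ± 3.69 and 17.2 ± 8.38 CPM). The neuronal gene *Elavl4* was at 0.184 to 0.513 CPM in the *Smad4Vil-KO* and at 1.49 to 3.01 CPM in the double-KO libraries, and passed the filter through the latter alone. *Acta2*, which did not pass the filter, was at 0.577 to 1.66 CPM in the *Smad4Vil-KO* and at most 0.498 CPM in the double-KO libraries. The part of tissue composition in the *Smad7* difference was not tested.

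*Smad6*, the inhibitory Smad that acts mainly on the BMP branch, was the lowest member that passed the filter. It was at 10.7, 5.11, 5.53 and 4.13 CPM in the *Smad4Vil-KO* libraries and at 1.99, 4.70, 4.82, 5.74 and 7.99 CPM in the double-KO libraries, from 31 to 167 counts. The highest value was in *Smad4Vil-KO* replicate 1 and the lowest in double-KO replicate 1, and the other libraries overlapped. The means were 6.37 ± 2.95 CPM (SD, n = 4) and 5.05 ± 2.16 CPM (SD, n = 5), with a log2 fold change of -0.34 (SE 0.37, edgeR adjusted p = 0.565, 95% interval -1.17 to 0.48). Without *Smad4Vil-KO* replicate 1 the estimate was 0.032.

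*Smad4Vil-KO* replicate 1 stood well above the other libraries of its genotype for *Smad4*, *Smad6* and *Smad7*, narrowly above them for *Smad2*, and not above them for *Smad1*, *Smad3* or *Smad5*. Over all genes, too, that library was apart from its genotype. Its chi-square on counts was 25.2 to 38.7 per gene against the others, which were at 10.8 to 11.9 among themselves. The genes most like *Smad6* were *Gm21885* (r = 0.97), *Slc4a2* (0.97) and *Cyp4f13* (0.96), and those most like *Smad7* were *Add1* (0.98), *Slc5a8* (0.97) and *Osbpl2* (0.97). In summed CPM, not scaled to length and so comparable between libraries and not between genes, the inhibitory Smads came to 0.170, 0.106, 0.123 and 0.111 of the level of the 5 receptor-regulated Smads in the *Smad4Vil-KO* libraries and to 0.0653, 0.0896, 0.0956, 0.0924 and 0.131 of it in the double-KO libraries. This ratio overlapped between the genotypes through double-KO replicate 5.

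Around the Smads, 72 genes of 5 lists of the pathway were tested, of which 8 were called (11.1%, beside 13.3% of all genes tested), 5 lower and 3 higher (6.54% and 6.76% of all genes tested). No ligand of 9 tested was called by edgeR, DESeq2 or limma-voom, and 2 had an unadjusted p under 0.05 by edgeR. *Bmp3* (89.1 ± 38.2 and 85.9 ± 16.2 CPM) and *Bmp2* (46.9 ± 16.1 and 36.6 ± 7.84 CPM) were among the ligands that did not pass the test. Of 13 receptors and co-receptors tested, 2 were lower and none higher, and of 8 extracellular antagonists 1 was lower and 1 higher. Both of these antagonists passed the filter through the genotype in which they were high, and under a filter of 10 counts or more per library none was called. Of 29 regulators of Smads, 2 were lower and 1 higher, and of 13 textbook target genes 1 was higher. The median log2 fold changes were -0.11 for ligands, -0.19 for receptors, -0.29 for antagonists, -0.08 for regulators and 0.11 for targets.

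**Figure D5:**
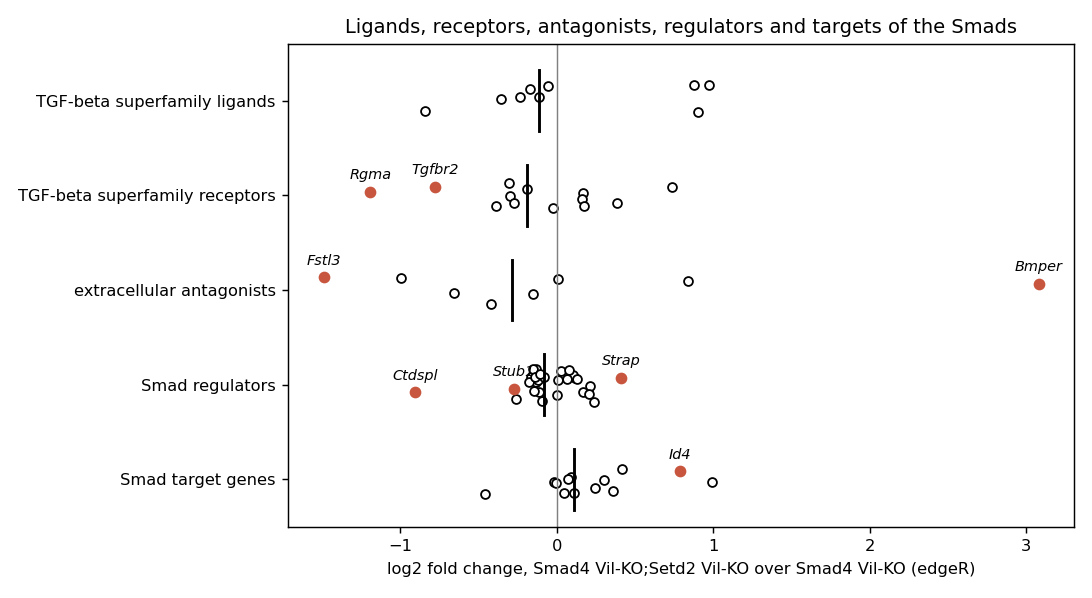
Log2 fold change, double-KO over *Smad4Vil-KO*, of the 72 tested ligands, receptors, antagonists, regulators and targets of the Smads, a point per gene, with vertical bars at the list medians. Filled and named points have an edgeR adjusted p under 0.05. They are 8 genes, from *Fstl3* (-1.49) to *Bmper* (3.08), and the list medians lie between -0.29 and 0.11.

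The difference with the smallest p was in *Tgfbr2*, the type II receptor that binds TGF-beta and starts the phosphorylation of *Smad2* and *Smad3*. It was at 84.7, 93.4, 86.8 and 93.4 CPM in the *Smad4Vil-KO* libraries and at 62.3, 51.3, 46.7, 50.8 and 50.3 CPM in the double-KO libraries, without overlap. The log2 fold change was -0.78 (SE 0.09, edgeR adjusted p = 0.000779), and *Tgfbr2* was called in 18 of 18 alternative fits. Its partner receptor *Tgfbr1* was not called (43.8 ± 1.46 and 49.5 ± 6.32 CPM, edgeR adjusted p = 0.254), nor was the BMP receptor *Bmpr1a* (125 ± 10.5 and 140 ± 16.5 CPM, edgeR adjusted p = 0.286). *Rgma*, a BMP co-receptor, was lower (3.93 ± 0.913 and 1.72 ± 0.698 CPM, -1.19, edgeR adjusted p = 0.0413), and its call was lost in 10 of 17 alternative fits, with adjusted p up to 0.114, among them those without any 1 of the *Smad4Vil-KO* libraries or without double-KO replicate 1, 4 or 5. *Rgmb*, of the same list and at a higher level, narrowly missed the threshold (90.3 ± 4.54 and 69.1 ± 11.8 CPM, -0.39, edgeR adjusted p = 0.0502). DESeq2 and limma-voom called it lower.

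Among the regulators, *Ctdspl*, a small C-terminal domain phosphatase, was at 67.6, 60.4, 69.0 and 61.4 CPM in the *Smad4Vil-KO* libraries and at 28.3, 37.7, 35.5, 29.6 and 41.3 CPM in the double-KO libraries, without overlap. The log2 fold change was -0.91 (SE 0.12, edgeR adjusted p = 0.00121), and it was called in 18 of 18 alternative fits. *Strap*, which binds TGF-beta receptors together with *Smad7*, was higher (111 ± 5.75 and 148 ± 18.9 CPM, 0.41, edgeR adjusted p = 0.0195). Its call was lost without *Smad4Vil-KO* replicate 1, 3 or 4 (edgeR adjusted p = 0.0581, 0.0535 and 0.0573) and with a term for Y-linked counts (0.0965). *Stub1*, a ubiquitin ligase also called CHIP, was at 67.2 ± 5.17 and 55.6 ± 3.27 CPM (-0.27, edgeR adjusted p = 0.0460), a call kept in 4 of 18 alternative fits and lost without any 1 of the 9 libraries (adjusted p up to 0.147).

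*Tgfbr2* (116087695-116175363) and *Ctdspl* (118926536-119044119) are on chromosome 9 in GRCm38, starting 5.56 and 8.39 Mb beyond the start of *Setd2*. Of the 176 tested genes within 10 Mb of *Setd2*, 42 were called (23.9%) and 35 of them were lower (19.9%), beside 6.54% lower among all genes tested. The part of this position in both differences was not tested. *Smad3* and *Smad6* lie outside that window.

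Of the secreted antagonists, *Bmper*, which binds BMPs, had 8 counts in total in the *Smad4Vil-KO* libraries and 82 in the double-KO libraries, a ratio of 9.03 with a counting interval of 4.37 to 21.6, and was higher in 5 of 5 double-KO libraries without overlap (log2 fold change 3.08, edgeR adjusted p = 0.0118), as 8.34% of all genes tested were. At no more than 3 counts in each *Smad4Vil-KO* library, it passed the filter through the double-KO libraries alone. It was tested in 12 of 18 alternative fits, among them the one with no filter. The call was lost with a term for Y-linked counts (edgeR adjusted p = 0.0732). *Fstl3*, which binds activins, was lower (1.48 ± 0.334 and 0.529 ± 0.282 CPM, -1.49, edgeR adjusted p = 0.0375), and passed the filter through the *Smad4Vil-KO* libraries, where it was high. This call was lost in 9 of 17 alternative fits, among them the one with no filter (edgeR adjusted p = 0.0509), the one to the libraries without Y-linked counts (-1.58, edgeR adjusted p = 0.0920) and those without any 1 of the *Smad4Vil-KO* libraries or without double-KO replicate 1, with adjusted p up to 0.123.

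Of the targets, *Id4*, an inhibitor of bHLH factors, was higher (5.33 ± 0.735 and 9.20 ± 2.15 CPM, 0.79, edgeR adjusted p = 0.0325), with an overlap through double-KO replicate 2. Its call was lost in 7 of 18 alternative fits, among them those without any 1 of the *Smad4Vil-KO* libraries or without double-KO replicate 3 or 4, with adjusted p up to 0.103. The other 12 targets tested were not called by edgeR in the fit to all 9 libraries. *Tgfbi*, a TGF-beta target, was at 4.56, 8.20, 7.74 and 7.78 CPM in the *Smad4Vil-KO* libraries and at 15.3, 18.6, 7.69, 19.7 and 8.84 CPM in the double-KO libraries, which overlapped through replicate 3, with a log2 fold change of 0.99 (SE 0.30, edgeR adjusted p = 0.0544), and DESeq2 called it. *Klf10* (79.3 ± 12.1 and 78.9 ± 10.1 CPM) and *Id1* (64.1 ± 24.6 and 63.2 ± 29.1 CPM, edgeR adjusted p = 0.974), targets of the TGF-beta and the BMP branch, had almost the same mean in both genotypes, and *Cdkn1a* was at 67.1 ± 24.9 and 89.6 ± 26.2 CPM (edgeR adjusted p = 0.295).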

How the data were processed

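RNA-seq of colon IECs from 4 *Smad4Vil-KO* and 5 double-KO (*Smad4Vil-KO;Setd2Vil-KO*) libraries was analysed. The authors deposited whole-number counts per gene symbol for each library, without normalization or pooling. The submitters' processing notes name HISAT2 2.0 and the mm10 genome. The counting program, annotation and strand setting are not given in the sources used here, so reads of near-identical genes may have been split. Of the symbols, 27 had been turned into dates and stayed in totals and tests without a name. Replicates of 1 genotype differed beyond sampling noise (chi-square of at least 9.22 per gene), so all 9 libraries were counted separately.

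In R 4.3.3 with edgeR 4.0.16, low genes were removed by genotype (filterByExpr), and the rest were scaled with TMM and tested two-sided with its quasi-likelihood test, without covariates, with Benjamini-Hochberg adjustment over all genes tested and a threshold of 0.05. The method was tested on simulated data. Alternatives were DESeq2 1.42.0, limma 3.58.1 (voom with quality weights), the size factors of DESeq2 in place of TMM, no scaling beyond library size, no filter, at least 10 counts in every library, the replicate number as a block, a term for libraries with at least 1000 Y-linked counts, the libraries without them, and each library left out in turn. Lengths and positions came from GENCODE M21, and motif windows from RefSeq promoters (GRCm38.p6).

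Named genes were the Smad genes, *Setd2*, the Y-linked genes, the members of 5 pathway lists with an adjusted p under 0.05 and up to 5 others with the highest mean, and the 5 (*Smad4*) or 3 (other Smad genes) genes most alike by correlation, and cell type markers set beside a result. Not every one of these is given. *Tgfbr1* and *Tgfbi*, outside the rule, and the single markers printed were picked with their values known. The members and lists were chosen with earlier results of these data known. Intervals on counts cover counting error only.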

Additional observations from a re-analysis of the deposited data

Results flagged for a closer look

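Among 18 sets of libraries (a Smad gene or *Setd2* in 1 genotype), 3 had a library that stood apart from the rest by Dixon's test at 95%, and chance flags about 1 in 20. *Smad4* was at 92.7 CPM in *Smad4Vil-KO* replicate 1, where the nearest library of that genotype was at 55.4 CPM. *Smad7* was at 33.8 CPM in the same library, with the nearest at 25.9 CPM. *Smad3* was at 62.4 CPM in double-KO replicate 5, with the nearest at 50.0 CPM. Without *Smad4Vil-KO* replicate 1 the log2 fold changes of *Smad4* and *Smad7* were 0.37 and -0.43, and without double-KO replicate 5 that of *Smad3* was -0.23, none of them past the threshold.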

How the results depend on the processing

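*Smad1*, *Smad3* and *Setd2* kept their direction and their side of the threshold in all 18 alternatives. *Smad2* changed sign with library size alone (0.0042) and without double-KO replicate 4, *Smad5* and *Smad6* without 1 library each, and *Smad4* with limma-voom (-0.18), with a term for Y-linked counts (-0.71), without the libraries with Y-linked counts (-0.70) and without double-KO replicate 2 or 5. *Smad7* passed the threshold with DESeq2 (-0.54), with limma-voom (-0.58) and in the libraries without Y-linked counts (-0.73), where *Smad5* passed too (-0.29). Leaving out each library in turn gave -0.16 to -0.0072 for *Smad1*, -0.062 to 0.0044 for *Smad2*, -0.23 to -0.14 for *Smad3*, -0.11 to 0.37 for *Smad4*, -0.12 to 0.0047 for *Smad5*, -0.56 to 0.032 for *Smad6*, -0.69 to -0.43 for *Smad7* and -0.89 to -0.70 for *Setd2*. The cause was not tested in any of these.

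Of all genes, 1941 were called, 2792 with DESeq2, 2927 with limma-voom and 1285 with a term for Y-linked counts. In the libraries without Y-linked counts 2930 were called, and 847 to 2696 with each library left out. The lowest counts came without *Smad4Vil-KO* replicate 1 (1018), 2 (1204), 3 (847) or 4 (1183) and without double-KO replicate 4 (1273). Smad genes called were 0, but 1 with DESeq2 or limma-voom, 2 in the libraries without Y-linked counts and 0 to 1 with a library left out. Receptors called were 2, but 4 with limma-voom, 1 with at least 10 counts in every library, 5 without Y-linked counts and 1 to 3 with a library left out. Antagonists called were 2, but 1 with no filter, 0 with at least 10 counts in every library, with the Y-linked term or without Y-linked counts, and 1 to 2 with a library left out. Regulators called were 3, but 5 with DESeq2, 7 without Y-linked counts and 1 to 2 with a library left out. Targets called were 1, but 2 with DESeq2, with no filter or without Y-linked counts, and 0 to 2 with a library left out. No ligand was called in any of the 18.

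Libraries with the same replicate number had correlations of -0.10, -0.10, 0.020 and 0.088 between the genotypes, beside -0.26 to 0.30 for libraries with different numbers. The labels do not state a pairing, and values from so few libraries cannot exclude one. With the replicate block, *Smad4* was at -0.14 (adjusted p = 0.765), *Smad7* at -0.70 (adjusted p = 0.0384), 1 Smad gene and 1 antagonist were called, and 1618 genes in all. *Smad9* rests on at most 12 counts in a library.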
